A study of Mus musculus with 12 samples.

Results

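T follicular helper (TFH) cells of Ets1-CD4-cKO mice were set against non-TFH cells of the same genotype. The members were the 6 libraries of the series titled with that genotype, of 12 in all: 3 KO TFH libraries and 3 KO non-TFH libraries. KO mice carried floxed Ets1 on both alleles and CD4-cre, a Cre transgene under the Cd4 promoter that is active in T cells from the thymus onward, on a C57BL/6 background. The remaining 6 libraries came from WT mice, which carried the floxed alleles without Cre, as 3 WT TFH and 3 WT non-TFH libraries. All cells were sorted from spleen, TFH cells as CD4+CXCR5+PD-1+ and non-TFH cells as CD4+CXCR5-PD-1-, so that the non-TFH gate holds naive and other CD4+ T cells together. Neither an age nor an immunisation is given in the labels, nor whether replicates are separate mice, so p-values measure the spread between these libraries, which may be technical.

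TFH cells settle in B cell follicles, where they supply B cells with CD40 ligand, interleukin 21 and interleukin 4 and sustain the germinal centre reaction. Their formation depends on the repressor Bcl6 and is opposed by Blimp-1 (Prdm1), Klf2 and the interleukin 2 pathway. Ets1 is a transcription factor of the ETS family, which binds GGAA cores and is abundant in resting lymphocytes. The comparison asks how the transcriptomes of both cell types differ when the floxed Ets1 allele is recombined in T cells.

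Levels are FPKM, the fragments on a gene divided by transcript length and by library depth, as the authors deposited them, scaled here between the 6 libraries. Changes are log2 changes of KO TFH over KO non-TFH on log2(scaled FPKM + 1), which understates changes of genes at low levels. They are given with a standard error (SE) and with a Benjamini-Hochberg adjusted p from limma over all tested features, and a gene is said to have risen or fallen where that p is under 0.05. An exact 0 in these tables may be a failed estimate, and such a gene is described as listed at 0. Estimated depths were 11.9, 11.9 and 14 M fragments in KO TFH libraries and 14.4, 13.6 and 13.6 M in KO non-TFH libraries. These estimates come from confidence bounds in the tables, and no counting interval was drawn from them.

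The Ets1 transcript (chromosome 9, 32696042 to 32757820, mm10) was present in all KO libraries. Scaled over all 12 libraries it averaged 254 ± 26.2 FPKM in KO TFH and 403 ± 18.2 FPKM in KO non-TFH cells, against 197 ± 23.0 FPKM in WT TFH and 410 ± 5.26 FPKM in WT non-TFH cells (SD, n = 3 each). The labels do not name the floxed exons, and a level of the whole gene does not check their deletion. Within KO cells Ets1 stood at 226, 274 and 268 FPKM in TFH libraries and at 424, 418 and 389 FPKM in non-TFH libraries, a log2 change of -0.68 ± 0.10 (SE; adjusted p = 0.00059).

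The sex-linked transcripts differed between the KO groups before any other result. Ddx3y, an RNA helicase gene of chromosome Y, read 0 in the 3 KO TFH libraries and 42.7, 45.6 and 41.4 FPKM in the KO non-TFH libraries. Eif2s3y likewise read 0 in each KO TFH library, against 51.0, 83.3 and 66.6 FPKM in KO non-TFH libraries. Xist, which is transcribed from the inactive X chromosome of females, stood at 23.6, 16.9 and 15.0 FPKM in KO TFH libraries and at 20.2, 0.33 and 0.085 FPKM in KO non-TFH libraries. KO TFH libraries thus carried Xist without Y-linked transcripts, KO non-TFH replicates 2 and 3 carried the reverse, and KO non-TFH replicate 1 carried both. Cell type and the sex or origin of the animals cannot be told apart in these 6 libraries. Of tested chromosome X genes 205 of 301 passed the threshold (68.1%), against 6787 of 9559 autosomal genes (71.0%). These shares do not measure the part of the animals' sex or origin in the calls, which was not tested.

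T cell markers were present in all libraries and differed between the groups. Cd3e, a chain of the T cell receptor complex, stood at 424, 440 and 530 FPKM in KO TFH libraries and at 220, 238 and 251 FPKM in KO non-TFH libraries. Thy1, a T cell surface marker, stood at 1.55, 1.32 and 1.96 FPKM in KO TFH libraries, against 29.6, 31.8 and 27.7 FPKM in KO non-TFH libraries. Of the 9 tested T cell markers 6 rose and 2 fell, Thy1 and Cd4, of which Cd4 lost its call without scaling (adjusted p = 0.056). The 9 T cell markers summed to between 3247 and 3847 FPKM in KO TFH and between 2309 and 2660 FPKM in KO non-TFH libraries. The 12 B cell markers with a value summed to between 62.6 and 79.1 FPKM in KO TFH and between 4.69 and 5.4 FPKM in KO non-TFH libraries, with Pax5 and Ebf1, which define B cells, under 1 FPKM everywhere. The 19 macrophage and monocyte markers summed to between 877 and 1258 FPKM in KO TFH libraries, of which Lyz2 made up 769, 477 and 605 FPKM, and to between 161 and 212 FPKM in KO non-TFH libraries. The 9 neutrophil markers went the other way, with 3.09 to 12.6 FPKM in KO TFH and 48.1 to 65.5 FPKM in KO non-TFH libraries. All of these sums differed without overlap between the groups, and the exact two-sided permutation p was 0.1 for each, the smallest that 3 against 3 libraries allow. In bulk samples, fewer cells of a type and less RNA per cell cannot be told apart.

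**Figure D1:**
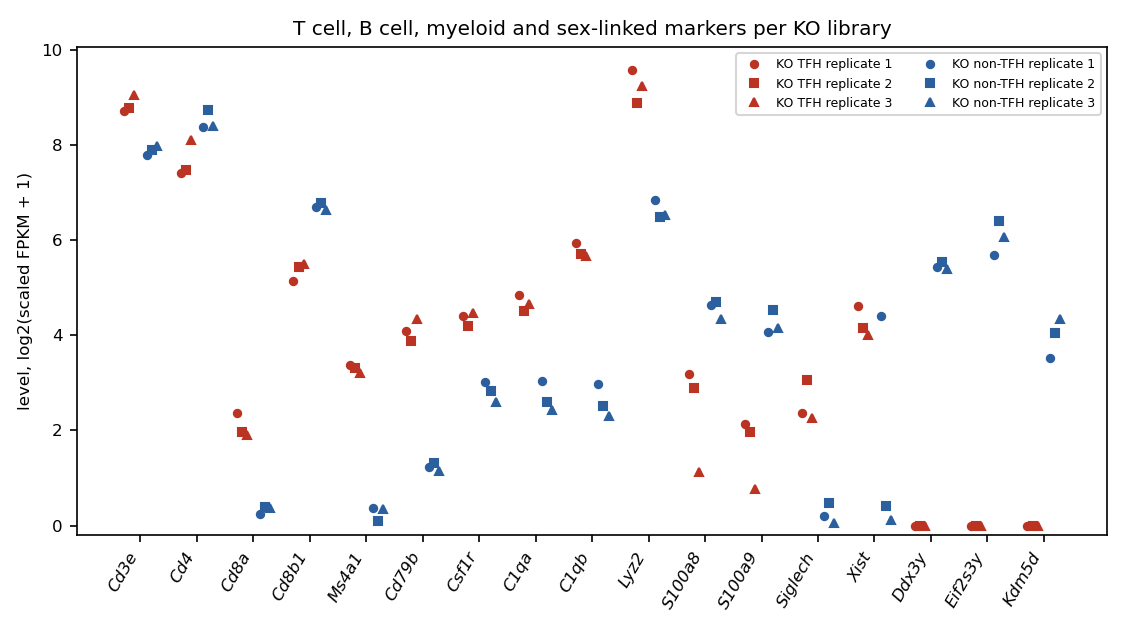
Levels of T cell, B cell, myeloid and sex-linked markers in each KO library, as log2(scaled FPKM + 1) on the vertical axis, with KO TFH libraries left of KO non-TFH libraries and replicates 1, 2 and 3 as circles, squares and triangles. Ms4a1 sits near 3 in KO TFH and under 1 in KO non-TFH libraries, and the Y-linked Ddx3y, Eif2s3y and Kdm5d sit at 0 in all 3 KO TFH libraries.

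Most measured genes differed between the cell types. Of 10346 tested features, which had 1 FPKM or more in at least 3 of the 6 libraries, 7342 passed the threshold (71.0%). Of these 3658 were higher (35.4%) and 3684 lower (35.6%) in KO TFH cells. Changes of at least 2-fold were called for 4495 features (43.4%), of which 2065 were higher (20.0%) and 2430 lower (23.5%), and changes of at least 8-fold for 227 higher and 246 lower features. The groups did not overlap for 7855 features (75.9%). These shares of all features are the background for the list counts below. Without scaling, 4506 were higher and 2977 lower, since the median feature then stood 0.28 log2 higher in KO TFH libraries. Libraries of a group correlated at 0.962 to 0.968 across genes, and libraries of different groups at 0.686 to 0.711, as a description.

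**Figure D2:**
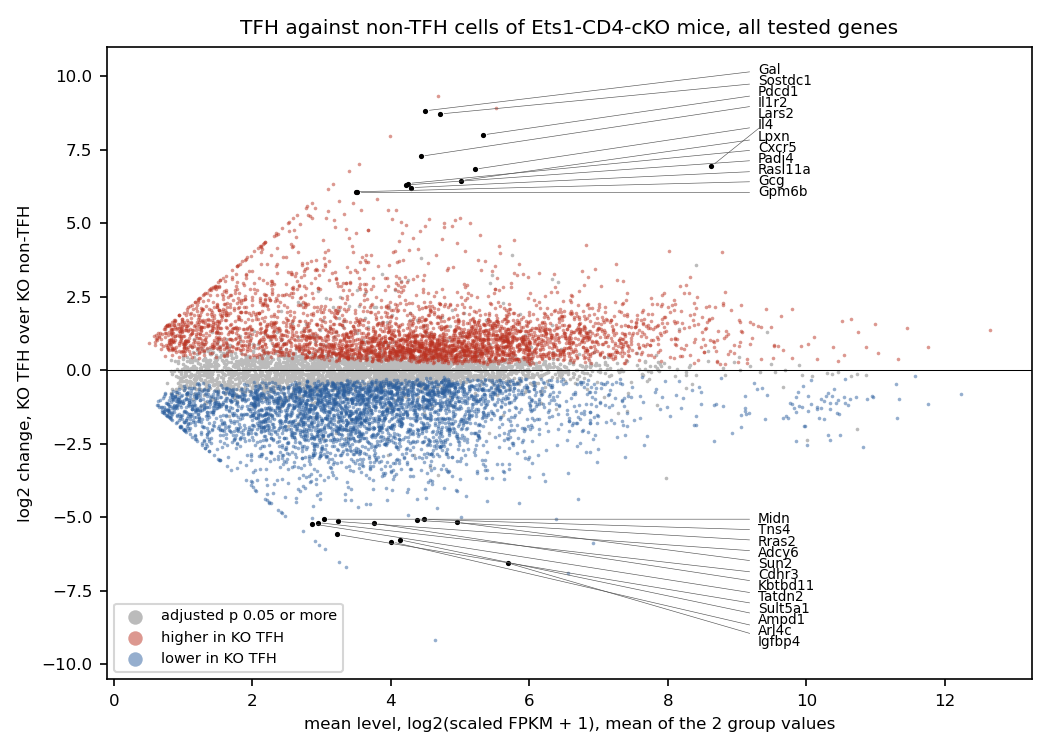
Log2 change of KO TFH over KO non-TFH (vertical) against mean level as log2(scaled FPKM + 1) (horizontal) for the 10346 tested features, with features past an adjusted p of 0.05 in colour. The 12 largest rises and the 12 largest falls under the naming rule are labelled, and unlabelled points beyond them include features listed at 0 throughout a group.

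Of the 12 largest rises under the naming rule 4 were on the TFH program list, Cxcr5, Pdcd1, Il4 and Sostdc1. Gal, which encodes the neuropeptide galanin (chromosome 19, 3409917 to 3414457, mm10), stood at 489, 361 and 607 FPKM in KO TFH libraries and at 0, 0.145 and 0 FPKM in KO non-TFH libraries. Its log2 change was 8.83 ± 0.19 (adjusted p = 5.3e-07). Sostdc1 (chromosome 12, 36314169 to 36318452), a secreted antagonist of BMP and Wnt ligands, stood at 528, 470 and 615 FPKM in KO TFH libraries and at 0.130, 0.364 and 0.324 FPKM in KO non-TFH libraries. Both genes were thus near absence in every KO non-TFH library, and their log2 changes were close, at 8.72 ± 0.14 for Sostdc1. Il1r2, the decoy receptor for interleukin 1, stood at 283, 232 and 291 FPKM in KO TFH libraries, against 0.945, 0.681 and 0.566 FPKM in KO non-TFH libraries. Padi4, a peptidylarginine deiminase, stood at 166, 144 and 178 FPKM in KO TFH libraries, against 0.697, 1.93 and 0.762 FPKM in KO non-TFH libraries. Rasl11a, Gcg and Gpm6b rose as well, with log2 changes of 6.22, 6.07 and 6.05.

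Others of the top rises rested on less even libraries. Lars2, the mitochondrial leucyl-tRNA synthetase gene, stood at 2777, 10019 and 1917 FPKM in KO TFH libraries and at 26.9, 43.9 and 22.0 FPKM in KO non-TFH libraries, a log2 change of 6.94 ± 0.67. Replicate 2 was far above the other KO TFH libraries. That the groups did not overlap was a condition of the naming rule. Lpxn, the adaptor leupaxin, stood at 232, 186 and 203 FPKM in KO TFH libraries, against 12.1, 0 and 0 FPKM in KO non-TFH libraries (log2 change 6.46 ± 1.06). Pdcd1 and Cxcr5, also among the largest, encode the proteins used in the sort.

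Of the 12 largest falls 1, Igfbp4, was on the list of naive and quiescence genes. Igfbp4, an insulin-like growth factor binding protein that is abundant in naive mouse T cells (chromosome 11, 99041260 to 99052643), stood at 2.47, 5.50 and 5.30 FPKM in KO TFH libraries and at 491, 532 and 446 FPKM in KO non-TFH libraries. Its log2 change was -6.55 ± 0.24 (adjusted p = 2e-06). Arl4c, a small GTPase, stood at 1.22, 1.24 and 0.955 FPKM in KO TFH libraries, against 121, 125 and 116 FPKM in KO non-TFH libraries. The libraries of each group lay close together for both genes. Ampd1, an AMP deaminase, stood at 2.12, 0.606 and 1.46 FPKM in KO TFH libraries and at 165, 106 and 110 FPKM in KO non-TFH libraries. Sun2, a component of the nuclear envelope, stood at 2.96, 4.2 and 5.50 FPKM in KO TFH libraries and at 193, 180 and 178 FPKM in KO non-TFH libraries. Sult5a1, Tatdn2, Kbtbd11, Cdhr3, Adcy6, Rras2, Tns4 and Midn completed the 12, with log2 changes of -5.58 for Sult5a1 to -5.06 for Midn.

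The genes used in the sort followed it. Pdcd1 stood at 614, 610 and 713 FPKM in KO TFH libraries and at 1.59, 1.43 and 1.49 FPKM in KO non-TFH libraries. Cxcr5 stood at 127, 146 and 159 FPKM in KO TFH libraries and at 0, 4.46 and 0 FPKM in KO non-TFH libraries. These values describe the gates and are no finding. Cd4, by which both populations were gated, stood at 170, 178 and 276 FPKM in KO TFH libraries, against 332, 430 and 337 FPKM in KO non-TFH libraries.

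Of the 25 genes of the TFH program, all were tested, 22 rose and 2 fell in KO TFH cells, with a median log2 change of 3.31. Over all tested features the median was -0.0016. Bcl6, the repressor that directs TFH fate (chromosome 16, 23965052 to 23988612), stood at 52.9, 46.6 and 52.6 FPKM in KO TFH libraries and at 10.5, 9.65 and 10.7 FPKM in KO non-TFH libraries, a log2 change of 2.20 ± 0.10 (adjusted p = 4.2e-06). Maf, which drives interleukin 21 and interleukin 4 production in TFH cells, stood at 48.0, 42.3 and 29.1 FPKM in KO TFH libraries, against 7.28, 9.05 and 6.22 FPKM in KO non-TFH libraries (log2 change 2.24 ± 0.21). Both regulators were higher in each KO TFH library than in any KO non-TFH library. Ascl2, which induces Cxcr5, stood at 20.3, 25.6 and 26.6 FPKM in KO TFH libraries and at 0, 0 and 0.0508 FPKM in KO non-TFH libraries. Tox2, an HMG box factor of TFH cells, stood at 113, 268 and 172 FPKM in KO TFH libraries, against 3.95, 4.60 and 3.53 FPKM in KO non-TFH libraries.

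The helper cytokines of TFH cells had some of the largest changes. Il21 (chromosome 3, 37222759 to 37232636) stood at 46.7, 54.3 and 45.1 FPKM in KO TFH libraries and at 0.519, 0.996 and 0.569 FPKM in KO non-TFH libraries, a log2 change of 4.88 ± 0.16 (adjusted p = 1.6e-06). Il4 (chromosome 11, 53612461 to 53618665) stood at 451, 266 and 481 FPKM in KO TFH libraries and at 1.75, 3.34 and 2.21 FPKM in KO non-TFH libraries, a log2 change of 6.84 ± 0.26 (adjusted p = 2.3e-06). Per length, Il4 was above Il21 in every KO TFH library. Of 20 tested cytokine genes 12 rose and 1 fell, where 71.0% of all features were called. Among the risers was Tnfsf8, which encodes CD30 ligand, at 194, 175 and 146 FPKM in KO TFH and 13.6, 20.0 and 15.7 FPKM in KO non-TFH libraries. Tnfsf11, which encodes RANK ligand, rose by 3.07 ± 0.26 on the log2 scale, and the member that fell was Ltb, lymphotoxin beta, at -1.02.

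Icos, Sh2d1a and S1pr2, genes of the TFH program that act in contact with B cells or in the follicle, rose. Icos, a co-stimulatory receptor required for TFH cells, stood at 186, 202 and 207 FPKM in KO TFH libraries and at 13.6, 19.6 and 13.6 FPKM in KO non-TFH libraries (log2 change 3.60 ± 0.15). Sh2d1a, which encodes the SLAM adaptor SAP, stood at 1045, 957 and 1174 FPKM in KO TFH libraries and at 64.7, 64.2 and 59.1 FPKM in KO non-TFH libraries (log2 change 4.05 ± 0.10). S1pr2, a receptor that confines cells to germinal centres, stood at 107, 91.2 and 108 FPKM in KO TFH libraries, against 2.26, 2.43 and 2.43 FPKM in KO non-TFH libraries (log2 change 4.93 ± 0.11). In all 3 genes the lowest KO TFH library was far above the highest KO non-TFH library. Of 15 tested co-stimulatory and co-inhibitory receptors 12 rose and 2 fell, with Cd160 at 4.81 and Cd200 at 3.76 among the rises and Lag3 at -0.89 among the falls. Leaving out any 1 of 5 libraries left 1 fall.

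The 2 members of the TFH program that fell were Tcf7 and Il6st. Tcf7, the factor TCF-1 that acts early in TFH formation and is also high in naive T cells, stood at 305, 254 and 272 FPKM in KO TFH libraries and at 571, 662 and 608 FPKM in KO non-TFH libraries (log2 change -1.15 ± 0.10). Il6st, the shared gp130 chain of interleukin 6 receptors, stood at 44.2, 51.5 and 44.0 FPKM in KO TFH libraries, against 119, 126 and 130 FPKM in KO non-TFH libraries. Irf4 did not pass, with 3.27, 1.73 and 3.12 FPKM in KO TFH libraries and 2.51, 2.98 and 2.24 FPKM in KO non-TFH libraries.

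**Figure D3:**
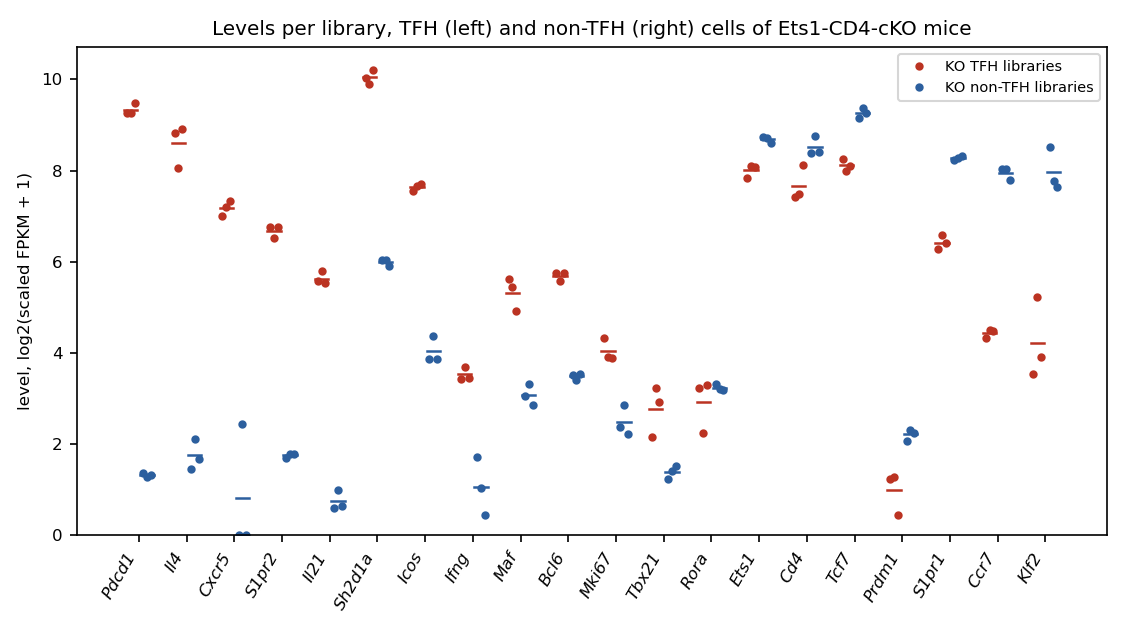
Levels as log2(scaled FPKM + 1) of 20 genes fixed by name, with each KO TFH library left of each KO non-TFH library and a bar at the group mean, ordered by log2 change. Genes of the sort and of the TFH program stand at the left, Rora, whose groups overlap, near the middle, and S1pr1, Ccr7 and Klf2 at the right, where KO non-TFH libraries are higher.

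Genes known to oppose TFH formation were mostly lower. Of 14 tested, 10 fell and 2 rose, with a median log2 change of -1.04. Klf2, a zinc finger factor that drives S1pr1 (chromosome 8, 72319062 to 72321654), stood at 10.7, 36.3 and 14.1 FPKM in KO TFH libraries and at 365, 219 and 198 FPKM in KO non-TFH libraries (log2 change -3.75 ± 0.49, adjusted p = 0.0008). Prdm1, which encodes Blimp-1 and opposes Bcl6, stood at 1.36, 1.42 and 0.369 FPKM in KO TFH libraries, against 3.23, 3.99 and 3.72 FPKM in KO non-TFH libraries (log2 change -1.22 ± 0.25). The KO TFH libraries varied more than the KO non-TFH libraries for Prdm1, and the groups did not overlap for either gene. Gpr183, a receptor that guides cells to the outer follicle, rose with 116, 78.4 and 66.4 FPKM in KO TFH libraries and 13.1, 11.9 and 16.0 FPKM in KO non-TFH libraries. Tbx21, which encodes T-bet, was the other riser, at 3.48, 8.44 and 6.59 FPKM in KO TFH libraries, against 1.34, 1.64 and 1.85 FPKM in KO non-TFH libraries.

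Genes of naive and quiescent T cells had the lowest list median apart from the sex-linked genes. Of 19 tested, 15 fell and 1 rose, with a median log2 change of -2.83, and all 15 fell by at least 2-fold. Ccr7, the receptor that leads cells to T cell zones (chromosome 11, 99144199 to 99155077), stood at 19.1, 21.8 and 21.4 FPKM in KO TFH libraries and at 260, 260 and 221 FPKM in KO non-TFH libraries (log2 change -3.51 ± 0.10, adjusted p = 1.3e-06). S1pr1, which guides exit from lymphoid tissue, stood at 76.2, 94.6 and 83.6 FPKM in KO TFH libraries and at 299, 311 and 320 FPKM in KO non-TFH libraries. Both trafficking genes were lower in every KO TFH library. Foxo1, a factor that maintains naive cells, stood at 6.33, 9.91 and 6.87 FPKM in KO TFH libraries, against 93.7, 93.0 and 75.9 FPKM in KO non-TFH libraries. Satb1, a chromatin organiser, and Dapl1 fell by 4.51 and 5.04 on the log2 scale.

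Chemokine and homing receptors were called about as often as other genes in either direction. Of 21 tested 8 rose and 8 fell, against 35.4% and 35.6% of all features, and the list median of -0.27 became 0.03 without scaling. Cxcr3 and Cxcr6, receptors of effector cells, rose by 2.66 and 3.41, and Cd44 and Itgb1, adhesion receptors of antigen-experienced cells, rose by 2.98 and 3.39. Ccr9, a gut homing receptor, stood at 12.2, 16.2 and 47.9 FPKM in KO TFH libraries and at 107, 98.9 and 110 FPKM in KO non-TFH libraries. KO TFH replicate 3 was the highest of its group for Ccr9 and still below every KO non-TFH library.

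Genes of other helper lineages were mixed. Of 16 tested type 1 genes 9 rose and 4 fell, with a median of 1.16. Ifng, which encodes interferon gamma, stood at 9.79, 12 and 10.01 FPKM in KO TFH libraries and at 2.31, 1.06 and 0.358 FPKM in KO non-TFH libraries (log2 change 2.46 ± 0.32). Il18r1, a chain of the interleukin 18 receptor, went down, at 2.16, 3.12 and 1.81 FPKM in KO TFH libraries and 63.4, 64.5 and 80.7 FPKM in KO non-TFH libraries. The direction thus differed within the type 1 list, and Eomes also fell, by 2.19 on the log2 scale. Of 7 tested type 2 genes 1 rose, Il4, and 3 fell, against 35.4% and 35.6% of all features. Among the falls was Il4ra, the interleukin 4 receptor chain, at 22.4, 19.7 and 21.3 FPKM in KO TFH and 210, 214 and 163 FPKM in KO non-TFH libraries. Gata3, the type 2 factor, could be measured only together with an overlapping antisense gene, and that sum stood at 99.9, 58.5 and 79.1 FPKM in KO TFH libraries, against 19.7, 19.9 and 20.2 FPKM in KO non-TFH libraries.

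Few type 17 genes reached the level filter. Of 5 tested type 17 genes 2 rose and 1 fell, and Rora did not pass, with 8.33, 3.71 and 8.80 FPKM in KO TFH libraries and 8.98, 8.19 and 8.11 FPKM in KO non-TFH libraries. The groups overlapped for Rora. Of 16 tested regulatory T cell genes 8 rose and 2 fell, where 71.0% of all features were called. The rises were led by Izumo1r, the folate receptor 4 gene, at 3.07, and Ikzf2, which encodes Helios, at 2.94. Foxp3, measured together with an overlapping gene, stood at 8.02, 10.8 and 7.27 FPKM in KO TFH libraries and at 12.7, 14.3 and 12.9 FPKM in KO non-TFH libraries (log2 change -0.57 ± 0.16, adjusted p = 0.015). That call was lost without scaling (log2 change -0.29, adjusted p = 0.16), with quantile normalization and without KO non-TFH replicate 2.

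Cell cycle genes rose as lists. All 27 tested mitosis genes rose by at least 2-fold, with a median log2 change of 3.24. Cdk1, the kinase that starts mitosis, stood at 84.7, 56.1 and 56.3 FPKM in KO TFH libraries and at 1.31, 2.11 and 0.940 FPKM in KO non-TFH libraries (log2 change 4.77 ± 0.23). Ube2c, a ubiquitin-conjugating enzyme of mitotic exit, stood at 168, 143 and 152 FPKM in KO TFH libraries, against 4.47, 4.2 and 2.77 FPKM in KO non-TFH libraries. Mki67, which encodes the proliferation antigen Ki-67 (chromosome 7, 135689788 to 135716379), had the smallest change of the list, at 19.2, 14.1 and 13.9 FPKM in KO TFH libraries and 4.21, 6.30 and 3.70 FPKM in KO non-TFH libraries (log2 change 1.56 ± 0.21). KO TFH replicate 1 was the highest library for Cdk1, Ube2c and Mki67 alike. Of 25 tested DNA replication genes 22 rose and 1 fell, led by Rrm2, a subunit of ribonucleotide reductase, at 143, 133 and 132 FPKM in KO TFH libraries and 5.49, 7.75 and 4.70 FPKM in KO non-TFH libraries. The list median was 1.78, and E2f2 fell by 0.65 on the log2 scale.

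Glycolysis and oxidative phosphorylation genes mostly rose. Of 16 tested glycolysis genes 13 rose and none fell, with a median of 1.87. Tpi1, triosephosphate isomerase, stood at 411, 349 and 463 FPKM in KO TFH libraries and at 37.3, 39.2 and 31.8 FPKM in KO non-TFH libraries (log2 change 3.46 ± 0.13). Aldoa, aldolase A, stood at 858, 681 and 810 FPKM in KO TFH libraries, against 102, 106 and 107 FPKM in KO non-TFH libraries. Each was higher in every KO TFH library, while Slc2a1, Gpi1 and Pfkfb3 did not pass. Of 17 tested nuclear genes of oxidative phosphorylation 15 rose and none fell, with a median of 1.26, led by Cox5b at 558, 592 and 579 FPKM in KO TFH and 138, 123 and 109 FPKM in KO non-TFH libraries. Of 18 cholesterol synthesis genes 4 rose and 7 fell, where 71.0% of all features were called. Without scaling the counts were 7 and 4. Insig1, a regulator of sterol sensing, was among the falls, by 1.01 on the log2 scale.

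Galectins, annexins and S100 proteins mostly rose, with 9 of 12 higher and 2 lower. S100a11 stood at 1655, 1831 and 1802 FPKM in KO TFH libraries and at 119, 99.99 and 106 FPKM in KO non-TFH libraries (log2 change 4.01 ± 0.09). S100a6 and Anxa2, calcium-binding proteins at membranes, rose by 3.61 and 2.90, and Lgals3 and Anxa6 fell by 1.2 and 1.14 on the log2 scale.

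Survival and interferon genes were mostly lower. Of 17 tested survival and death genes 10 fell and 5 rose, with a median of -0.64. Mcl1, an antiapoptotic member of the BCL2 family, stood at 19.2, 24.8 and 20.0 FPKM in KO TFH libraries and at 183, 170 and 179 FPKM in KO non-TFH libraries (log2 change -3.01 ± 0.11). Bak1, a proapoptotic member, stood at 2.61, 1.48 and 1.09 FPKM in KO TFH libraries, against 27.5, 28.2 and 28.5 FPKM in KO non-TFH libraries. Antiapoptotic and proapoptotic members were thus both among the falls. Of 20 tested interferon response genes 14 fell and 1 rose, with a median of -1.04. Rsad2, the antiviral enzyme viperin, stood at 4.86, 6.59 and 5.73 FPKM in KO TFH libraries and at 17.9, 20.1 and 19.3 FPKM in KO non-TFH libraries.

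Of 24 tested T cell receptor signalling genes 14 rose and 5 fell, with a median of 0.55, and with quantile normalization 9 fell. Over all features 35.4% rose and 35.6% fell, 71.0% together. Fyn, a kinase that binds SAP, stood at 110, 111 and 108 FPKM in KO TFH libraries and at 29.5, 34.7 and 37.5 FPKM in KO non-TFH libraries (log2 change 1.67 ± 0.11). The kinase gene Txk and Plcg1, a phospholipase, were among those that fell, by 2.30 and 1.80 on the log2 scale.

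Of 14 tested ETS family genes 4 rose and 7 fell, Ets1 among them, with a median of -0.45. The share called was near the 71.0% of all features. Without KO non-TFH replicate 1 the counts were 3 and 5, and without scaling 4 fell. Elf4, a factor of T cell quiescence, stood at 12.9, 14.3 and 12 FPKM in KO TFH libraries and at 65.3, 64.7 and 74.8 FPKM in KO non-TFH libraries. Elf1 fell by 1.49, while Spib rose by 2.56 to 11.2, 4.77 and 5.21 FPKM in KO TFH libraries, against 0.259, 0.272 and 0.332 FPKM in KO non-TFH libraries. Spib is also expressed by B cells and plasmacytoid dendritic cells, and their part in the Spib result was not tested. The B cell marker Ms4a1 changed by 3.02. Of the plasmacytoid markers Siglech changed by 2.32, Bst2 by -1.35 and Ccr9 by -2.25. The 11 dendritic cell markers summed to between 97.4 and 116 FPKM in KO TFH libraries and between 202 and 261 FPKM in KO non-TFH libraries. Of the KO non-TFH sums Bst2 made up 138, 94.1 and 142 FPKM and Ccr9 107, 98.9 and 110 FPKM. Of the 5 tested members 2 rose, Siglech and Irf8, and 2 fell, Bst2 and Ccr9.

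Immediate early genes, which respond within minutes to stimulation, were uneven among KO non-TFH libraries. Of 23 tested 4 rose and 8 fell, and 11 did not pass. Fos stood at 182, 128 and 96.0 FPKM in KO TFH libraries and at 794, 236 and 134 FPKM in KO non-TFH libraries, with no call. Klf4 stood at 0.646, 0.182 and 0.288 FPKM in KO TFH libraries, against 39.8, 3.5 and 3.25 FPKM in KO non-TFH libraries. KO non-TFH replicate 1 was the highest of its group for 18 of 22 of these genes with all values, against 32.9% of all tested features, and Klf2 was highest there too. Without that library 7 rose and 9 fell, and the list median was -0.36 in place of -0.76. Egr2, which supports Bcl6 expression, was among the risers, at 52.2, 59.2 and 60.3 FPKM in KO TFH and 10.9, 12 and 12.5 FPKM in KO non-TFH libraries.

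Transcripts of other cell types moved with the cell type. All 9 tested B cell markers rose, with a median of 1.71, and without KO non-TFH replicate 1 it was 8 of 9. Ms4a1, which encodes CD20, stood at 9.33, 8.89 and 8.21 FPKM in KO TFH libraries and at 0.289, 0.0759 and 0.270 FPKM in KO non-TFH libraries. Cd74, the chaperone of MHC class II molecules, was summed with an overlapping microRNA gene and stood at 492, 536 and 456 FPKM in KO TFH libraries, against 20.4, 29.9 and 24.3 FPKM in KO non-TFH libraries. Macrophages and dendritic cells express Cd74 as well, and its level was near that of Cd3e in KO TFH libraries. Cd79a, a chain of the B cell receptor, was summed with Arhgef1, and that sum stood at 75.5, 110 and 98.5 FPKM in KO TFH libraries, against 455, 461 and 422 FPKM in KO non-TFH libraries (log2 change -2.24 ± 0.14). The genes of a summed feature cannot be told apart. Of 17 tested macrophage and monocyte markers 16 rose and none fell, among them C1qb, a complement chain of tissue macrophages, at 60.4, 51.5 and 50.1 FPKM in KO TFH and 6.85, 4.71 and 3.94 FPKM in KO non-TFH libraries. All 6 tested neutrophil markers fell, among them S100a9, at 3.42, 2.92 and 0.696 FPKM in KO TFH libraries and 15.8, 22.0 and 16.8 FPKM in KO non-TFH libraries. The part of such cells in the gene groups above was not tested.

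Of 10 tested CD8 and cytotoxic markers 4 were higher and 3 lower, shares near the 35.4% and 35.6% of all features. Cd8b1 stood at 34.5, 42.2 and 44.6 FPKM in KO TFH libraries and at 104, 109 and 98.1 FPKM in KO non-TFH libraries, while Cd8a stood at 4.18, 2.89 and 2.73 FPKM in KO TFH and 0.183, 0.315 and 0.296 FPKM in KO non-TFH libraries. Both populations were gated on CD4, and the chains of the CD8 coreceptor thus differed in opposite directions. Gzmb, granzyme B, stood at 8.99, 17.1 and 7.30 FPKM in KO TFH libraries, against 55.7, 53.7 and 43.8 FPKM in KO non-TFH libraries, and Gzmk, granzyme K, stood at 8.08, 7.20 and 8.39 FPKM in KO TFH and 0.810, 0.485 and 0.369 FPKM in KO non-TFH libraries.

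**Figure D4:**
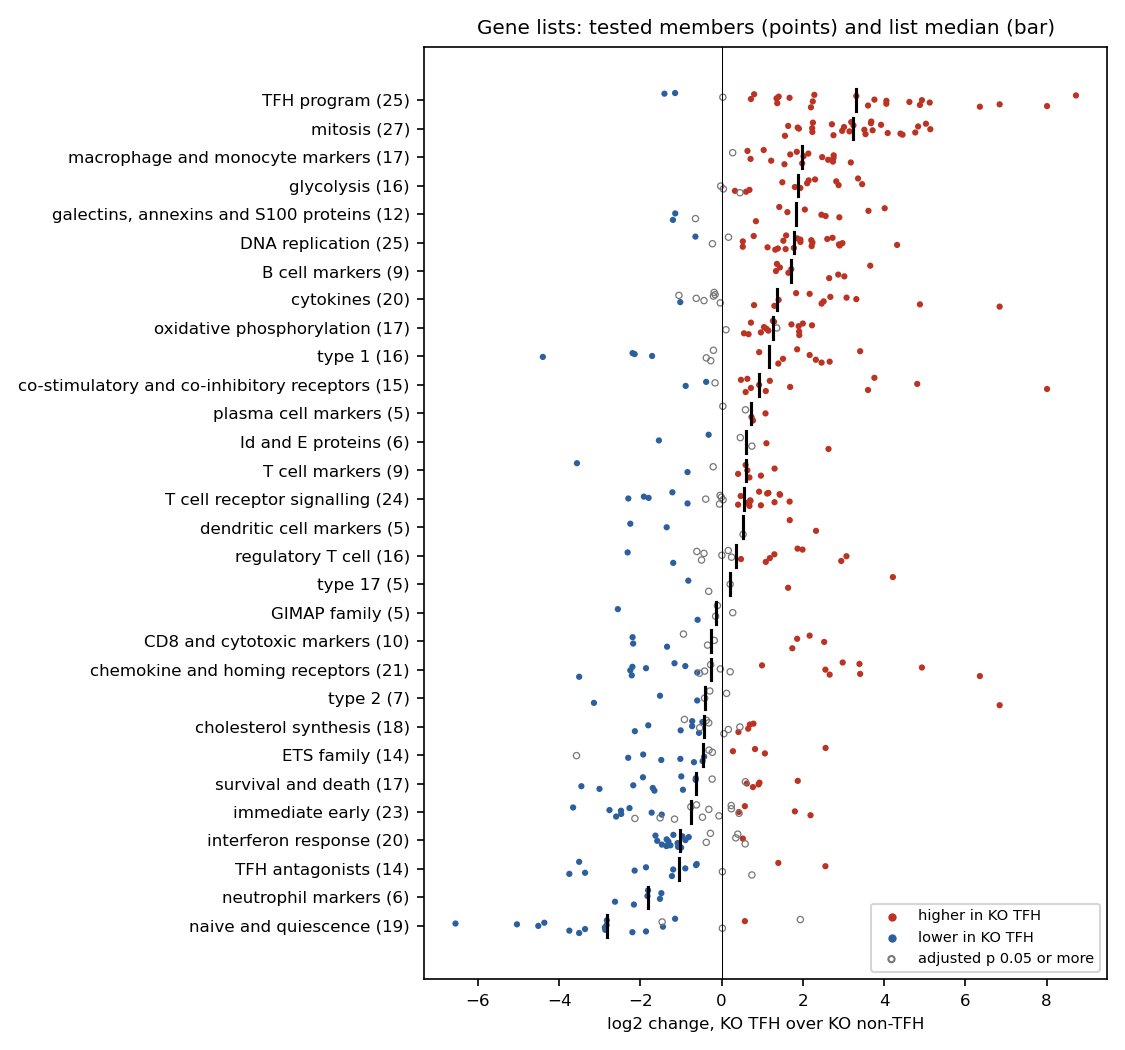
Log2 change of KO TFH over KO non-TFH for the tested members of each list with at least 5 of them (points, number tested in brackets), with the list median as a bar, filled red for called rises, filled blue for called falls and open where the adjusted p was 0.05 or more. Medians run from 3.31 for the TFH program to -2.83 for naive and quiescence genes, and the chemokine receptor and GIMAP medians change sign without scaling.

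The cell type change of KO mice was then set against that of WT mice, in a fit over all 12 libraries with an interaction term, which gives the change in KO minus the change in WT. The interaction passed the threshold for 1892 of 11039 features (17.1%), of which 745 were positive (6.75%) and 1147 negative (10.4%). These shares of all features are the background for the interaction counts of lists below. Of 10186 features tested in both fits 5816 were called in KO and in WT mice, and 5690 of these (97.8%) had the same sign. The 6 KO and 6 WT libraries share no sample. The WT libraries were mixed in sex-linked transcripts as well. Ddx3y stood at 33.5, 2.22 and 5.28 FPKM and Xist at 0, 16.0 and 13.7 FPKM in WT TFH libraries. WT non-TFH replicates 2 and 3 held Ddx3y at 68.4 and 52.1 FPKM and Xist at 1.82 and 0.164 FPKM. Replicate 1 had no value for either. In both genotypes the sex or origin of the animals thus cannot be told apart from cell type, nor from genotype.

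The levels below are scaled over all 12 libraries and given as means ± SD with n = 3 per group unless another n is given. Il4 averaged 395 ± 116 FPKM in KO TFH and 2.39 ± 0.805 FPKM in KO non-TFH cells, against 33.1 ± 16.7 FPKM in WT TFH and 0.304 ± 0.288 FPKM in WT non-TFH cells, an interaction of 2.26 ± 0.54 (SE; adjusted p = 0.014 from limma). Gal averaged 481 ± 122 FPKM in KO TFH cells, against 29.2 ± 8.12 FPKM in WT TFH cells, with an interaction of 3.94 ± 0.31. Both genes rose with the TFH gate in either genotype, and by more in KO on the log2(scaled FPKM + 1) scale. In non-TFH cells Il4 averaged under 1 FPKM in WT and Gal in both genotypes, so the added 1 understates these changes. Il4 was higher in KO than in WT cells of both gates. Il21 had a negative interaction of -1.02 ± 0.22, with 48.2 ± 4.82 FPKM in KO TFH and 0.682 ± 0.259 FPKM in KO non-TFH cells, against 70.1 ± 8.72 FPKM in WT TFH and 0.188 ± 0.0909 FPKM in WT non-TFH cells. For Bcl6 the interaction was 0.09 ± 0.18 with an adjusted p of 0.80.

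The TFH change of Ifng was smaller in KO than in WT mice, and Rora, which rose in WT TFH cells, did not pass in KO mice. Ifng averaged 10.5 ± 1.17 FPKM in KO TFH and 1.22 ± 0.970 FPKM in KO non-TFH cells, against 50.5 ± 13.8 FPKM in WT TFH and 0.723 ± 0.305 FPKM in WT non-TFH cells, an interaction of -2.43 ± 0.42. Rora, a factor of type 17 cells, averaged 6.88 ± 2.79 FPKM in KO TFH and 8.27 ± 0.465 FPKM in KO non-TFH cells, against 19.2 ± 1.87 FPKM in WT TFH and 1.28 ± 0.122 FPKM in WT non-TFH cells, an interaction of -3.45 ± 0.34. Of the 16 type 1 genes 9 had a called negative interaction and none a positive one, and of the 5 type 17 genes 3 were negative and 1 positive.

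Of 18 naive and quiescence genes 7 had a called negative interaction and none a positive one. Ccr7 averaged 20.6 ± 1.51 FPKM in KO TFH and 242 ± 22.3 FPKM in KO non-TFH cells, against 77.2 ± 6.85 FPKM in WT TFH and 212 ± 2.88 FPKM in WT non-TFH cells, an interaction of -2.04 ± 0.14 (adjusted p = 2.8e-06). Of 16 glycolysis genes 10 had a positive interaction and none a negative one, among them Aldoa at 775 ± 90.6 FPKM in KO TFH and 103 ± 2.85 FPKM in KO non-TFH cells, against 413 ± 17.1 FPKM in WT TFH and 168 ± 6.71 FPKM in WT non-TFH cells. For mitosis 1 of 27 genes had a called interaction. Fyn had opposite directions in the genotypes, with 109 ± 1.46 FPKM in KO TFH and 33.3 ± 4.03 FPKM in KO non-TFH cells, against 59.6 ± 8.05 FPKM in WT TFH and 146 ± 9.75 FPKM in WT non-TFH cells, an interaction of 2.97 ± 0.16.

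Markers of macrophages and immediate early genes had mostly negative interactions. Of 17 macrophage markers 15 were negative and 1 positive, with C1qb at 53.4 ± 5.41 FPKM in KO TFH and 5.07 ± 1.48 FPKM in KO non-TFH cells, against 295 ± 101 FPKM in WT TFH and 2.65 ± 0.529 FPKM in WT non-TFH cells. Of 23 immediate early genes 17 were negative and none positive. KO non-TFH replicate 1 was the highest of its group for 18 of 22 of these genes with all values. The interactions of this list were not counted without that library. The part of either list in the interaction results above, which were of both signs, was not tested.

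**Figure D5:**
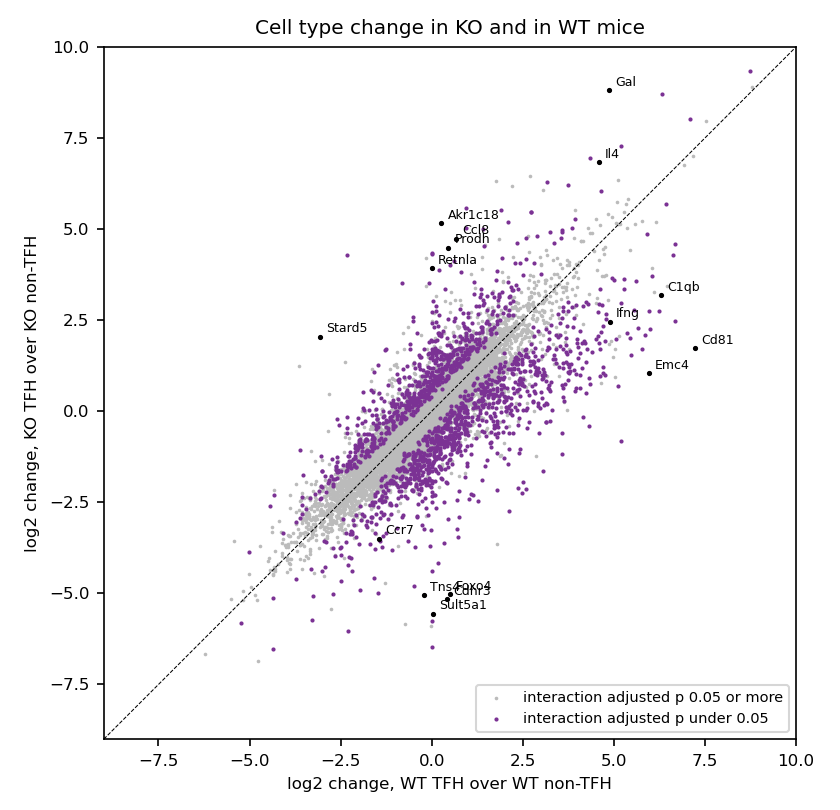
Log2 change of TFH over non-TFH cells in KO mice (vertical) against that in WT mice (horizontal), both from the fit over 12 libraries, with features past an interaction adjusted p of 0.05 in purple and a dashed line where both changes are equal. Gal, Il4, Akr1c18, Ccl8, Prodh and Retnla lie above the line, and Cd81, Emc4, C1qb, Ifng and Ccr7 below it.

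Promoters were searched for letters of 4 binding motifs, shown here for a TFH gene of the sort, a cell cycle gene and a gene lower in KO TFH cells. The windows run from 250 bases before to 50 after the RefSeq gene start on GRCm38.p6, each 300 bases long and printed 5′ to 3′ on the strand of the gene. Capitals mark matches to CCGGAAG (ETS) or CCACCC (KLF) on either strand.
Pdcd1 (chr1:94052504-94052803, minus strand): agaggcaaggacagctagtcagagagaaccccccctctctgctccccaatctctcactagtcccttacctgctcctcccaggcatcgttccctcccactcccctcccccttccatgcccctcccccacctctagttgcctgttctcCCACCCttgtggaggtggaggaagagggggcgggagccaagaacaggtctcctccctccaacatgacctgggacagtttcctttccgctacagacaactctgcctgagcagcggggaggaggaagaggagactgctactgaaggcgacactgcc
Mki67 (chr7:135716330-135716629, minus strand): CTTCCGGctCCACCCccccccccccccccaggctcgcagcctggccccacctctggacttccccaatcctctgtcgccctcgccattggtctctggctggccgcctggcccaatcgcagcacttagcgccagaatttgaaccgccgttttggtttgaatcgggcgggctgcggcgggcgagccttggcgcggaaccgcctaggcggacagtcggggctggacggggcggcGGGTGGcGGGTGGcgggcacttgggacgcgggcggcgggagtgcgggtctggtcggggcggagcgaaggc
Klf2 (chr8:72318812-72319111, plus strand): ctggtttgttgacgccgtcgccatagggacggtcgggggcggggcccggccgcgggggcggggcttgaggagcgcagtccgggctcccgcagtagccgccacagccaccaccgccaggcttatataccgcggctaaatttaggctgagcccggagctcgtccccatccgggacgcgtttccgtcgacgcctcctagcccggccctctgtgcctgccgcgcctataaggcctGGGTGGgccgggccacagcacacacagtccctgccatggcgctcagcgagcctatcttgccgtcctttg

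Among 42 genes fixed by name or with the largest changes, 28 had a promoter in the table, and 1 of these, Mki67, held the ETS letters, while 12 held the KLF letters. Of 4 holding CAGCTG, an E-box, examples are Tcf7 and Ifng, and Padi4 was the gene with the AP-1 letters TGACTCA. Over 7574 tested genes with a promoter 20.8% held the ETS letters, against 8.86% of all 32851 promoters in the table. The share was 19.4% of 1493 genes at least 2-fold higher in KO TFH cells, 16.1% of 1781 genes at least 2-fold lower and 22.0% of 2203 genes that did not pass. For the KLF letters these shares were 35.1%, 38.3% and 35.6%, and for the AP-1 letters 3.75%, 2.75% and 2.91%. A match is a description of letters in a window and not a binding site.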

How the data were processed

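Splenic CD4+ TFH and non-TFH cells of KO and WT mice were sequenced as stranded poly(A) libraries (TruSeq Stranded mRNA), per the labels' protocols. The authors deposited 1 table of FPKM per gene and library, and the build mm10 and the tools Cufflinks, Cuffdiff, TopHat, TopHat2, Bowtie, Bowtie2, cutadapt and FastQC are credited to the submitters' processing notes. No setting is stated there. Unnamed loci and failed rows were left out. Genes that Cufflinks joined in some libraries were summed as joint features (637 of 23292), and a missing value was left missing. Features missing in 1 KO library alone numbered 69 to 73 per KO TFH and 134 to 160 per KO non-TFH library, and the fits drop missing libraries gene by gene. FPKM were divided by median ratios over 8087 features at 1 FPKM or more in all 6 libraries, which gave factors of 0.887 to 1.12.

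Features reaching 1 FPKM in 3 or more of the 6 libraries were tested as log2(FPKM + 1) with limma 3.58.1 in R 4.3.3, with a variance trend, robust moderation and Benjamini-Hochberg adjustment to 0.05. This filter can pass a gene through its high group alone. The interaction was fitted over all 12 libraries. On simulated data with 200 changed genes the fit recovered 63% of 2-fold and 94% of 4-fold changes in KO cells, with 6.55% of calls false. For the interaction it recovered 47% and 80%, with 6.62% false. The changed genes were 200 of 9833 in KO cells and 200 of 10006 for the interaction, and genes at low levels were not among them. Of all features 71.0% were called in the KO comparison, so these rates need not hold for it. Other steps used pandas 2.3.3, numpy 2.4.6 and matplotlib 3.10.9 under Python 3.11.15.

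The members, the 35 gene lists and the tests were chosen with earlier results of these data known, and no pattern already known from them is independent support. Of 476 list genes 395 were tested. Genes were named by rule: 24 fixed genes, the 12 largest rises and 12 largest falls among called single genes with complete, non-overlapping values at 5 FPKM or more in the higher group and not 0 throughout the other, up to 4 called members of each list with the largest changes, and the 6 most positive and negative interactions. Other list members named in the text were chosen after their values were seen, and a few named by the rule are not reported here. Lists of germinal centre B cell, plasma cell, NK cell, platelet, dendritic cell, Id and E protein and GIMAP genes are reported below. Alternatives covered the pseudocount, the level filter, scaling, the fit, the replicate block and leaving out each library.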

Additional observations from a re-analysis of the deposited data

Results flagged for a closer look

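The 35 genes below changed differently between TFH and non-TFH cells in KO and WT mice by the interaction test in limma (adjusted p under 0.05). They were fixed by name or had the largest changes or the most positive or negative interactions. Other named list members, such as Fyn, Aldoa and C1qb, had called interactions as well. All values below are the log2 change in KO minus that in WT, on log2(scaled FPKM + 1). Where a group averaged under 1 FPKM, as for Il4 in WT non-TFH cells, the added 1 understates the change. The sex or origin of the animals cannot be told apart from the groups compared.

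Among TFH genes the difference was positive for Il4 (2.26), S1pr2 (1.69), Sh2d1a (1.24) and Pdcd1 (0.91), and negative for Il21 (-1.02) and Maf (-0.88). It was negative for Ccr7 (-2.04), Klf2 (-2.37) and Prdm1 (-2.01), for Ifng (-2.43) and Rora (-3.45), and for Cd4 (-0.89). Prdm1 averaged 1.04 ± 0.582 FPKM in KO TFH and 3.58 ± 0.384 FPKM in KO non-TFH cells, against 5.0 ± 2.45 FPKM in WT TFH and 2.28 ± 0.0421 FPKM in WT non-TFH cells (SD, n = 3 each), so that its cell type order was reversed between the genotypes.

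Among the largest rises it was positive for Gal (3.94), Padi4 (3.13), Lars2 (2.60), Rasl11a (2.47), Sostdc1 (2.38), Il1r2 (2.09) and Gpm6b (1.40). Padi4 averaged 161 ± 17.3 FPKM in KO TFH cells and 10.5 ± 3.96 FPKM in WT TFH cells. Among the largest falls it was negative for Ampd1 (-2.45), Igfbp4 (-2.17), Rras2 (-1.82), Adcy6 (-0.76) and Arl4c (-0.57).

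Sult5a1 (-5.58), Cdhr3 (-5.58) and Tns4 (-4.85) were high in KO non-TFH cells and averaged under 3 FPKM in each of the other groups, with single libraries listed at 0 for Sult5a1 and Cdhr3. Tns4, an actin-linked tensin, averaged 2.84 ± 0.434 FPKM in KO TFH and 126 ± 5.46 FPKM in KO non-TFH cells, against 0.0477 ± 0.0217 FPKM in WT TFH and 0.210 ± 0.109 FPKM in WT non-TFH cells (n = 3 each). Foxo4 (-5.51) averaged 0.270 ± 0.0631 FPKM in KO TFH and 40.0 ± 3.16 FPKM in KO non-TFH cells, against 0.420 ± 0.181 FPKM in WT TFH cells (n = 3 each), and was listed at 0 in both WT non-TFH libraries that had a value. Cd81 (-5.48) and Emc4 (-4.91) were listed at 0 in all WT non-TFH libraries, and Stard5 (5.12) was listed at 0 in all WT TFH libraries, where a 0 may be a failed estimate. Akr1c18 (4.90), Ccl8 (4.08), Prodh (4.04) and Retnla (3.92) were high in KO TFH cells, with Retnla listed at 0 in all WT libraries and at 18.6 ± 10.2 FPKM in KO TFH cells.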

How the results depend on the processing

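The numbers of features called and of interactions called moved by less than 1.5 times under all alternatives run. The number of called features was 7342 and lay between 6172 at a filter of 5 FPKM and 7891 without a filter, and between 6727 and 7274 when each library was left out. Without scaling 60.2% of calls were higher in KO TFH cells, against 49.8% with it, and with quantile normalization 3835 were higher and 3463 lower. Without chromosomes X and Y 7131 were called, and without features listed at 0 throughout a group 7187, both chosen after seeing the data. The interaction count was 1892 and lay between 1475 and 2074 when each library was left out. Same-numbered KO libraries did not deviate together (correlations of 0.040, -0.018 and 0.018). With 3 libraries per group these values cannot tell whether libraries of the same number share an animal or a batch. With the replicate block 7054 features were called (3496 higher, 3558 lower) and 1400 interactions (510 positive, 890 negative). Not every library correlated best with its own number. Of 175 named features 161 kept their call throughout. Quantile normalization reversed the joint features of Cd27 (-0.50), Cd68 (-0.41) and Tnfrsf4 (-0.078). Without scaling the chemokine receptor median became 0.032 and the GIMAP median 0.18, and a filter at 5 FPKM turned the dendritic cell median to -1.35. Among list counts of 3 or more, those that moved by over 1.5 times were the cholesterol synthesis rises (4 to 7) and falls (7 to 4) and the ETS family falls (7 to 4) without scaling, the T cell receptor signalling falls (5 to 9) and immediate early rises (4 to 2) with quantile normalization, the immediate early rises (4 to 7) without KO non-TFH replicate 1, and the B cell rises (9 to 4) and neutrophil falls (6 to 2) at a filter of 5 FPKM, which tests fewer genes. The sex-linked falls (3) left with their features. Counts of 2 or fewer moved by 1 to 3 genes. The other causes were not tested. Calls of Klf4, Jchain, Tcf12 and the joint features of Cd68, Foxp3 and Tnfrsf4 were lost when single libraries were left out. Depth is only estimated here, so the counting error of low levels could not be set.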

Other observations

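Smaller lists gave these values, where over all features 35.4% rose and 35.6% fell. Of 6 tested Id and E protein genes 2 rose, Id1 (2.63) and Id3 (1.10), and 2 fell, Tcf3 (-1.54) and Tcf12 (-0.32). Tcf12 lost its call without scaling and without KO non-TFH replicate 2 (adjusted p up to 0.92 over the alternatives). Id1 stood at 14.4, 19.2 and 16.7 FPKM in KO TFH libraries and at 3.25, 1.75 and 0.987 FPKM in KO non-TFH libraries. Of 5 tested GIMAP genes, GTPases of lymphocyte survival, 2 fell, Gimap8 (-2.55) and Gimap3 (-0.59), the second of which lost its call without scaling. Of 5 tested plasma cell markers 3 rose, of 5 dendritic cell markers 2 rose and 2 fell, and of 2 germinal centre B cell markers 1 rose, S1pr2, which TFH cells express themselves. Of 3 tested NK cell markers 2 rose, Klrb1c and Tyrobp, and Tyrobp is also on the macrophage and monocyte list. Klre1, an NK cell marker that was not tested, stood at 0, 0 and 0.232 FPKM in KO TFH libraries and at 0.861, 3.51 and 1.84 FPKM in KO non-TFH libraries. The 1 tested platelet marker, Itga2b, fell by 1.54 on the log2 scale, and no erythroid marker had a tested feature of its own. The joint feature of the alpha globin genes Hba-a1 and Hba-a2 stood at 82.7, 115 and 121 FPKM in KO TFH libraries and at 5.03, 31.6 and 3.81 FPKM in KO non-TFH libraries. Nrp1, summed with a microRNA gene, stood at 127, 75.8 and 171 FPKM in KO TFH libraries and at 2.76, 3.21 and 3.07 FPKM in KO non-TFH libraries. The joint feature of Lta read 18167 FPKM in KO non-TFH replicate 1, against 9.27 and 10.5 FPKM in the other KO non-TFH libraries and 8.10, 11.5 and 8.45 FPKM in KO TFH libraries, and it carried no call.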
